A study of Mus musculus with 6 samples.

Results

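Collagen chains are the 44 genes on the array whose only annotated symbol is a collagen chain symbol (Col, a type number, a, and a chain number), out of 22180 genes with 1 symbol. For each gene the probe set with the highest mean over the arrays stood for it. By class, 11 chains are fibrillar, 6 are the type IV chains of basement membrane and 27 belong to other types. RNA came from 6 mammary tumours, each with its own number in the labels. All were positive for PyMT, a transgene for the middle T oncoprotein of polyoma virus that gives rise to mammary tumours. In 3 of them serglycin, a proteoglycan of secretory granules, was knocked out (SG-/-), and the other 3 were heterozygous (SG+/-), so no tumour carried 2 intact copies of the gene. Each tumour was measured on 1 whole-transcript Affymetrix array. The study looked for genes that depend on serglycin. The sources used here do not give the promoter of the transgene, the strain or the age of the mice.

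Collagens are matrix proteins whose chains wind around each other into a triple helix. Fibrillar collagens, types I, III and V among them, are made mainly by fibroblasts and assemble into the fibres of connective tissue, including the stroma of mammary tumours. Type IV chains form the sheet-like network of basement membranes beneath epithelium and around vessels, and the remaining types bind to fibrils, form beaded filaments or anchoring fibrils, or span the cell membrane. In bulk tumour RNA, fewer cells of a type and less RNA per cell cannot be told apart.

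Values are log2 expression levels after robust multi-array averaging by the authors, and a difference is SG-/- minus SG+/- on that scale. A level depends on the probes of its probe set, so levels are compared between tumours and not between genes. Array medians lay between 6.50 and 6.73. The targeted gene, Srgn, was at 6.76, 6.43 and 6.35 in the SG+/- tumours, given here and throughout as replicates 1 to 3, and at 5.07, 5.04 and 4.89 in the SG-/- tumours, so the genotypes did not overlap. No gene passed an adjusted p of 0.05 in limma (0 of 22180, or 0.0%), and 469 genes, 2.11%, had an unadjusted p under 0.05. Srgn ranked first in that fit and did not pass either (unadjusted p = 2.11e-05, adjusted p = 0.467 in limma). A gene that does not pass here may therefore still differ. The series description reports nearly all of its altered genes as lower in SG-/- tumours. Among genes with an unadjusted p under 0.05, which may not be the criterion of the series, 317 were higher and 152 lower here. Without SG+/- replicate 3, 189 were higher and 273 lower. Under every other alternative most were higher, from 57.3% without SG+/- replicate 1 to 72.3% without SG-/- replicate 2. The mean of 1394 olfactory and vomeronasal receptor genes, taken as silent in mammary tissue, ran from 4.57 in SG-/- replicate 1 to 5.86 in SG-/- replicate 3. Low values were thus not at the same height on all arrays. Not all of these genes were dim. A mean level under 6.088, the dim level used below, was found for 1074 of them and not for 320, whose highest mean was 11.66.

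No collagen chain passed an adjusted p of 0.05 (0 of 44 in limma, each adjusted p = 1.00). Of the 44, 29 were higher and 15 lower in SG-/- tumours. Their median difference was 0.07, while 46.3% of all genes were higher and their median difference was -0.01. The differences of single chains ran from -0.36 for Col9a1 to 0.84 for Col14a1. These were the 2 chains with an unadjusted p under 0.05, 1 higher and 1 lower, where 1.43% and 0.685% of all genes had such a p in the same directions. By direction, 9 of 11 fibrillar chains, 3 of 6 type IV chains and 17 of 27 others were higher, with median differences of 0.09, 0.01 and 0.04. Without SG-/- replicate 1, 23 of 44 were higher and the median difference was 0.01. With limma array weights, which give SG-/- replicate 2 a weight of 4.95 and SG-/- replicate 3 a weight of 0.197, 21 were higher and the median was 0.00.

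**Figure D1:**
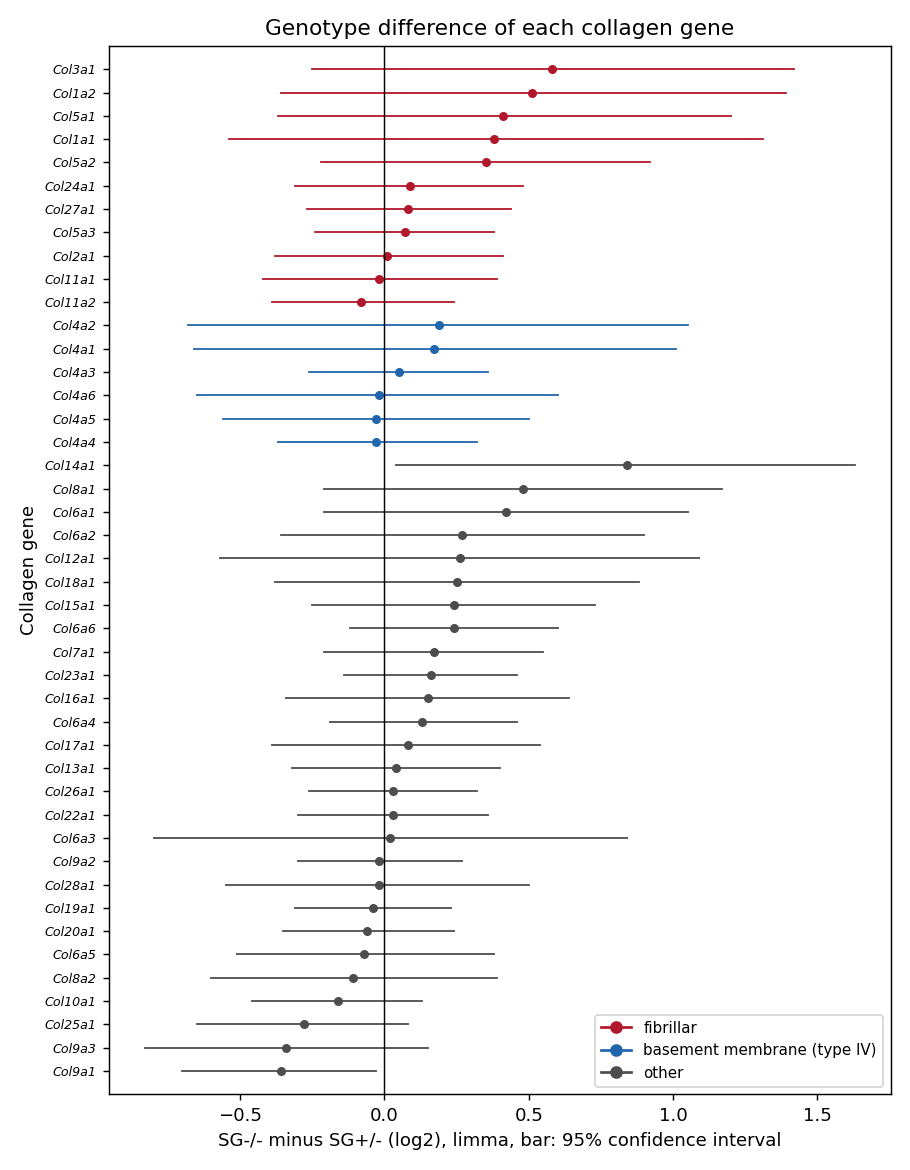
Difference between genotypes (SG-/- minus SG+/-, log2, x axis) for each of the 44 collagen genes (y axis), grouped by class, where points are limma estimates over 3 tumours per genotype and bars are 95% confidence intervals. The interval lies above 0 for Col14a1 (0.04 to 1.63) and below 0 for Col9a1 (-0.70 to -0.03), and it spans 0 for the other 42 chains.

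Of the 44 chains, 38 had a mean level of at least 6.088, the 40th percentile of the mean levels of all probe sets, used here as the dim level. The 6 chains beneath it were Col4a4, Col6a4, Col6a5, Col10a1, Col19a1 and Col28a1, with means from 5.08 to 6.09 and differences from -0.16 to 0.13. Col4a4, at 6.09 after rounding, lay only just beneath the dim level. Col10a1, a short chain of hypertrophic cartilage, was at 5.82, 6.01 and 6.02 in SG+/- tumours and at 5.72, 5.81 and 5.84 in SG-/- tumours. The genotypes overlapped between 5.82 and 5.84, and the difference was -0.16.

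The main fibrillar chains spread more widely among SG-/- tumours than the genotypes differed. Col1a1, which encodes the main chain of type I collagen, was at 10.72, 10.92 and 10.49 in SG+/- tumours and at 11.91, 10.25 and 11.12 in SG-/- tumours (10.71 ± 0.21 and 11.09 ± 0.83, mean ± SD, n = 3 each). The highest and the lowest value both came from SG-/- tumours, so the genotypes overlapped fully. Col1a1 differed by 0.38 (standard error 0.39, 95% confidence interval -0.54 to 1.31, exact two-sided permutation p = 0.6, where 0.1 is the smallest that 3 against 3 tumours allow). Col1a2, its partner chain, was at 9.61, 9.80 and 9.46 in SG+/- tumours and at 10.94, 9.36 and 10.12 in SG-/- tumours, in the same order of tumours, with a difference of 0.51 (standard error 0.37). Col3a1, the chain of type III collagen, was at 9.56, 9.81 and 9.22 in SG+/- tumours and at 10.84, 9.41 and 10.08 in SG-/- tumours (9.53 ± 0.30 and 10.11 ± 0.71, mean ± SD, n = 3 each). SG-/- replicates 1 and 3 lay above all SG+/- tumours and SG-/- replicate 2 lay among them. The difference was 0.58 (standard error 0.35, 95% confidence interval -0.25 to 1.42, exact two-sided permutation p = 0.3).

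Type V chains co-assemble with type I and set fibril diameter. Of these, Col5a1 and Col5a2 shared the high value of SG-/- replicate 1 but not that of SG-/- replicate 3. Col5a1 was at 7.90, 7.70 and 7.60 in SG+/- tumours and at 8.96, 7.77 and 7.73 in SG-/- tumours. Col5a2 was at 7.57, 7.89 and 7.64 and at 8.57, 7.87 and 7.70 in the same order. For both genes SG-/- replicates 2 and 3 lay within the SG+/- range, and the differences were 0.41 and 0.35. Col5a3, the third type V chain, ran from 7.38 to 7.49 in SG+/- and from 7.34 to 7.64 in SG-/- tumours, with a difference of 0.07. Col11a1, which nucleates fibrils and is abundant in cartilage, was at 9.65, 9.16 and 9.31 in SG+/- tumours and at 9.55, 9.25 and 9.26 in SG-/- tumours. Its difference was -0.02 (95% confidence interval -0.42 to 0.39). The other 4 fibrillar chains, Col2a1, Col11a2, Col24a1 and Col27a1, had differences from -0.08 to 0.09.

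SG-/- replicate 1 was the highest tumour for 7 of 11 fibrillar chains and for 15 of all 44 collagen chains (34.1%), against 20.0% of all genes. Among chains at or above the dim level the share was 36.8%, against 25.6% of all genes at or above it. SG-/- replicate 2 was the lowest tumour for 5 fibrillar chains, Col1a1 and Col1a2 included. Without SG-/- replicate 1 the difference was -0.03 for Col1a1, 0.11 for Col1a2, 0.22 for Col3a1, 0.01 for Col5a1 and 0.09 for Col5a2. Without SG-/- replicate 2 it was 0.81, 0.90 and 0.93 for Col1a1, Col1a2 and Col3a1, with unadjusted limma p of 0.0273, 0.0164 and 0.0182 and an adjusted p of 1.00 for each. In the array-weighted fit Col1a1 differed by -0.09.

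**Figure D2:**
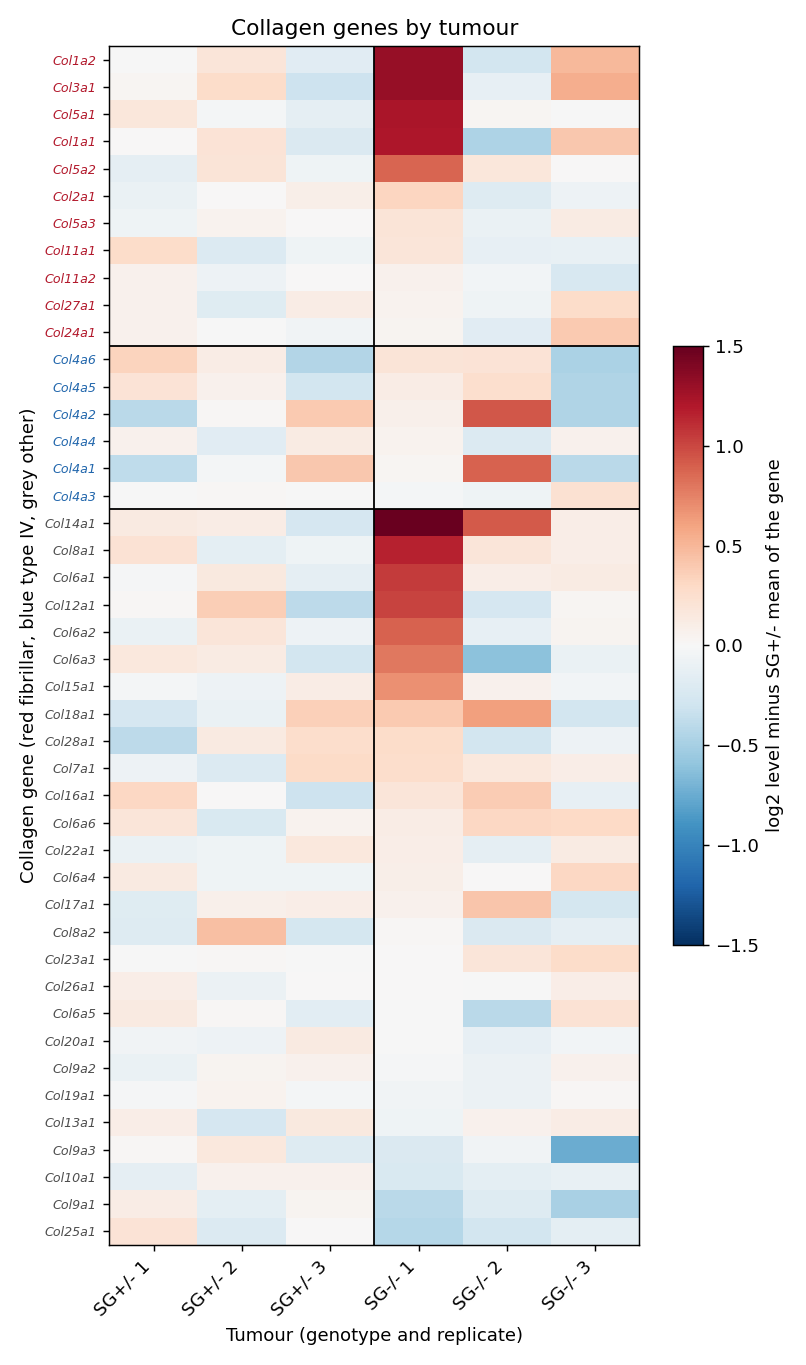
Level of each of the 44 collagen genes (rows, fibrillar, type IV and other from top to bottom) in each tumour (columns), as the log2 level minus the mean of that gene over the 3 SG+/- tumours, with red above and blue below that mean. The column of SG-/- replicate 1 is red for Col1a1, Col1a2, Col3a1, Col5a1, Col5a2, Col14a1, Col8a1, Col6a1 and Col12a1, while Col4a1 and Col4a2 are reddest in SG-/- replicate 2.

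Type I chains, which form one heterotrimer, varied together over the tumours. The log2 ratio of Col1a1 to Col1a2 ranged over 0.22 across the 6 tumours, although the genes themselves ranged over 1.67 and 1.58. For Col1a1 and Col3a1 the ratio ranged over 0.43, and for Col3a1 and Col5a2, which are neighbours on chromosome 1, over 0.84. Col1a2 and Col3a1 followed each other closely, and the 250 bases before their start sites are printed here, 5' to 3' on the strand of the gene, for the letters they hold. They are from RefSeq (GRCm38.p6), Col1a2 at chr6:4505368-4505617 and Col3a1 at chr1:45311288-45311537, both on the plus strand. Capitals mark matches on either strand to 3 common promoter motifs. These were CCAAT, which nuclear factor Y binds, then TATAAA, the core of the TATA box, and finally GGGCGG, which Sp1 binds.
Col1a2: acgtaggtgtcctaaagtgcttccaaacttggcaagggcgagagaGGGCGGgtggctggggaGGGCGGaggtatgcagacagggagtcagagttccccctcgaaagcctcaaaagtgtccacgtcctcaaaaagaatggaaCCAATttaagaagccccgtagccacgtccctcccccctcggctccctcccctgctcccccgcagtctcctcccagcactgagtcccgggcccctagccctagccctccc
Col3a1: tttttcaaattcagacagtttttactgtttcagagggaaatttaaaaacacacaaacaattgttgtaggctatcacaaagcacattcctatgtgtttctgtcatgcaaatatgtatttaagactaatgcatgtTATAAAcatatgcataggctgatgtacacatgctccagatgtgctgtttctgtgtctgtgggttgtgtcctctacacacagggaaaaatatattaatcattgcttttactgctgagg
The Col1a2 window held a CCAAT at -109 to -105 and a pair of GGGCGG matches, at -205 to -200 and -188 to -183, and the Col3a1 window held 1 match, TATAAA at -117 to -112, counted from the start site. No matches overlapped each other. Of 32851 promoter windows of that length, 33.8% held CCAAT, 12.4% TATAAA and 32.7% GGGCGG on either strand. Promoter windows matched 35 of the 44 collagen genes, and of their 38 windows 34.2%, 13.2% and 57.9% held these letters. These matches describe the letters alone and were not tested as binding sites.

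Type IV chains followed another order of tumours. Col4a1, which encodes a chain of the basement membrane network found in nearly all tissues, was at 8.44, 8.79 and 9.23 in SG+/- tumours and at 8.85, 9.71 and 8.42 in SG-/- tumours (8.82 ± 0.39 and 8.99 ± 0.66, mean ± SD, n = 3 each). Here SG-/- replicate 2 was the highest and SG-/- replicate 3 the lowest tumour, and the genotypes overlapped fully. The difference was 0.17 (standard error 0.35, 95% confidence interval -0.66 to 1.01, exact two-sided permutation p = 0.7). Col4a2, which joins Col4a1 in the same trimer, was at 7.83, 8.25 and 8.63 in SG+/- tumours and at 8.32, 9.16 and 7.79 in SG-/- tumours, with a difference of 0.19. The log2 ratio of Col4a1 to Col4a2 ranged over 0.11 across the 6 tumours, while the genes ranged over 1.29 and 1.38. The ratio of Col1a1 to Col4a1 ranged over 2.53, more than either gene alone. SG-/- replicate 3 was lowest for 4 of the 6 type IV chains, and it was lowest for 7231 of the 14860 genes at or above the dim level. Without SG-/- replicate 2, Col4a1 differed by -0.19 and Col4a2 by -0.18, and without SG-/- replicate 3 by 0.46 and 0.50.

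Col4a5 and Col4a6, chains of basement membranes in kidney, skin and smooth muscle, were lowest in SG-/- replicate 3 and next lowest in SG+/- replicate 3. Col4a5 was at 8.57, 8.42 and 8.08 in SG+/- tumours and at 8.47, 8.60 and 7.91 in SG-/- tumours. Col4a6 was at 8.98, 8.76 and 8.21 and at 8.84, 8.86 and 8.18 in the same order. The genotypes overlapped in both, and the differences were -0.03 and -0.02 (95% confidence intervals -0.56 to 0.50 and -0.65 to 0.60). In the array-weighted fit, where SG-/- replicate 3 counts little, they were 0.31 and 0.34. The log2 ratio of Col4a5 to Col4a6 ranged over 0.27, against 0.70 and 0.80 for the genes. Col4a3 and Col4a4, the chains of the glomerular basement membrane, were near the dim level, from 6.15 to 6.18 and from 5.92 to 6.22 in SG+/- tumours and from 6.10 to 6.40 and from 5.90 to 6.17 in SG-/- tumours. Their differences were 0.05 and -0.03, and their log2 ratio ranged over 0.32, no less than Col4a3 and Col4a4 themselves at 0.30 and 0.32.

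Type IV genes are arranged in head-to-head pairs, and in both pairs above the dim level the partners varied together. In RefSeq (GRCm38.p6) the start sites of Col4a1 and Col4a2 lie 21 bases apart on opposite strands of chromosome 8. They are placed so that the first bases of the genes overlap. The promoter windows of this pair, counted with 50 bases after the start, share 78 bases, but the 250 bases before each start do not overlap. A CCAAT lay in each of these 250 bases, at -145 to -141 for Col4a1 and at -32 to -28 for Col4a2. Those of Col4a2 also held GGGCGG. The start sites of Col4a6 and Col4a5 lie 1343 bases apart on the X chromosome. Their 250 bases before the start are printed because this pair shares no window, Col4a6 at chrX:141474077-141474326 on the minus strand and Col4a5 at chrX:141475169-141475418 on the plus strand, with capitals as for Col1a2.
Col4a6: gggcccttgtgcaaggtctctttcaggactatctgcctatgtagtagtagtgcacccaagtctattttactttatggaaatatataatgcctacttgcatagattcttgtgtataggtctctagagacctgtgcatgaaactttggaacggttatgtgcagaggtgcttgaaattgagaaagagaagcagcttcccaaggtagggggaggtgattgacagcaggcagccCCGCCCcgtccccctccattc
Col4a5: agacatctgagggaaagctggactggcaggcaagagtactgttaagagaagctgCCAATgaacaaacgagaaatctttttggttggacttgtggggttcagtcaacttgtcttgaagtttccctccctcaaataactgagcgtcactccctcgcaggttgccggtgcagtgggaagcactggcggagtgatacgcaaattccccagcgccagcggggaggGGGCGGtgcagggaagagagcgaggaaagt
Each held 1 GGGCGG match, on the opposite strand at -21 to -16 in Col4a6 and at -30 to -25 in Col4a5, and Col4a5 held CCAAT at -196 to -192.

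Among the chains that decorate fibrils, Col14a1 had the largest difference of all collagen genes. It encodes a fibril-associated collagen of dense connective tissue. It was at 8.20, 8.18 and 7.82 in SG+/- tumours and at 9.55, 8.98 and 8.17 in SG-/- tumours (8.07 ± 0.21 and 8.90 ± 0.69, mean ± SD, n = 3 each). SG-/- replicates 1 and 2 lay above all SG+/- tumours, and SG-/- replicate 3 lay inside their range. The difference was 0.84 (standard error 0.34, 95% confidence interval 0.04 to 1.63, unadjusted p = 0.0412, adjusted p = 1.00 in limma), a fold of 1.78. Leaving out SG-/- replicate 1 gave 0.51 and leaving out SG-/- replicate 3 gave 1.20, and its adjusted p ran from 0.191 with array weights to 1.00 over all settings. Col12a1, a related fibril-associated chain, was at 10.11, 10.46 and 9.70 in SG+/- tumours and at 11.11, 9.84 and 10.12 in SG-/- tumours, with a difference of 0.26. Col12a1 overlapped between genotypes, with SG-/- replicate 1 highest. Col14a1 was also high in SG-/- replicate 2, and the log2 ratio of Col12a1 to Col14a1 ranged over 1.43.

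Col9a1 was the 1 collagen gene whose genotypes did not overlap. It encodes a chain of type IX collagen, which coats fibrils in cartilage. It was at 9.98, 9.72 and 9.91 in SG+/- tumours and at 9.47, 9.68 and 9.38 in SG-/- tumours (9.87 ± 0.13 and 9.51 ± 0.15, mean ± SD, n = 3 each). Every SG-/- tumour lay below every SG+/- tumour, by a gap between 9.72 and 9.68. The difference was -0.36 (standard error 0.14, 95% confidence interval -0.70 to -0.03, unadjusted p = 0.0379, adjusted p = 1.00 in limma), and over all settings the adjusted p ran from 0.425 to 1.00. Of all genes, 3.19% were lower in SG-/- tumours without overlap and 2.84% were higher, so 1 of 44 lower and 0 of 44 higher lie near that background. The other chains of type IX collagen, chosen after their values were seen, did not share this pattern in full. Col9a3 was at 8.70, 8.84 and 8.49 in SG+/- tumours and at 8.46, 8.62 and 7.93 in SG-/- tumours, with a difference of -0.34 and overlapping genotypes, and Col9a2 differed by -0.02 with all tumours between 8.51 and 8.66. Of 7 cartilage markers, 4 were under the dim level. These were Acan, Matn1, Matn3 and Hapln1, which encode cartilage matrix proteins and lay between 4.70 and 5.73 in all tumours. The other 3 were above it on average. Sox9, a transcription factor of chondrocytes that epithelium also expresses, had a mean of 10.61, Cnmd had 6.85, and Comp, a cartilage matrix protein, ranged from 6.05 to 8.07, with both extremes in SG+/- tumours. Their part in the Col9a1 values was not tested.

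Of the 6 chains of type VI collagen, which forms beaded filaments, Col6a1, Col6a2 and Col6a3 were highest in SG-/- replicate 1. Col6a1 was at 9.15, 9.33 and 9.05 in SG+/- tumours and at 10.22, 9.27 and 9.29 in SG-/- tumours. Col6a2 was at 8.35, 8.62 and 8.36 and at 9.32, 8.32 and 8.48 in the same order. Col6a3, the long chain of the trimer, was at 8.45, 8.41 and 8.01 in SG+/- tumours and at 9.08, 7.67 and 8.19 in SG-/- tumours, so that SG-/- replicates 1 and 2 were its highest and lowest tumours. The differences were 0.42, 0.27 and 0.02 (95% confidence intervals -0.21 to 1.05, -0.36 to 0.90 and -0.80 to 0.84), and all 3 overlapped between genotypes. Without SG-/- replicate 1 they were 0.11, -0.04 and -0.36. Col8a1, a short chain of vessel walls and endothelial matrix, was at 9.26, 8.88 and 8.97 in SG+/- tumours and at 10.19, 9.21 and 9.13 in SG-/- tumours. Its difference was 0.48 (standard error 0.29) and 0.14 without SG-/- replicate 1.

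Col15a1 and Col18a1 encode the multiplexin collagens of basement membrane zones, and the end fragment of the Col18a1 product is endostatin, an inhibitor of vessel growth. Col15a1 was at 7.08, 7.02 and 7.22 in SG+/- tumours and at 7.79, 7.18 and 7.07 in SG-/- tumours. Col18a1 was at 6.77, 6.92 and 7.38 and at 7.41, 7.64 and 6.76 in the same order. Col15a1 thus stood out in SG-/- replicate 1, like the fibrillar chains, and Col18a1 was highest in SG-/- replicate 2 and lowest in SG-/- replicate 3, like Col4a1. Both overlapped between genotypes, with differences of 0.24 and 0.25. Col15a1 differed by 0.02 without SG-/- replicate 1. Col18a1 differed by 0.06 without SG-/- replicate 2, by 0.12 without SG+/- replicate 1, by 0.42 without SG+/- replicate 3 and by 0.50 without SG-/- replicate 3.

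Of the epithelial collagens, Col7a1 ranged over 0.49 and Col17a1 over 0.68 across the tumours, where the median over all genes was 0.56. Col7a1, which forms the anchoring fibrils beneath stratified epithelium, was at 7.40, 7.27 and 7.76 in SG+/- tumours and at 7.73, 7.63 and 7.58 in SG-/- tumours. Col17a1, a membrane-spanning collagen of hemidesmosomes, was at 7.29, 7.55 and 7.57 and at 7.53, 7.89 and 7.21. The genotypes overlapped in both, and the differences were 0.17 and 0.08. The highest Col17a1 value, in SG-/- replicate 2, and the lowest, in SG-/- replicate 3, fell in the same tumours as those of Col4a1. Among the remaining chains at or above the dim level, Col25a1 differed by -0.28 with an overlap between 8.33 in SG+/- and 8.38 in SG-/- tumours, and was chosen after its values were seen. Col8a2, Col13a1, Col16a1, Col20a1, Col22a1, Col23a1, Col26a1 and Col6a6 had differences from -0.11 to 0.24.

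Markers of cell types that make collagen were read in the same tumours. All 13 measured fibroblast markers other than collagens were highest in SG-/- replicate 1, where 20.0% of all genes had their highest value. All 13 were above the dim level, and of all genes at or above it 25.6% were highest in that tumour. Relative to the SG+/- mean of each gene, the median marker stood at 0.11, 0.09 and -0.18 in SG+/- tumours and at 1.03, 0.18 and 0.06 in SG-/- tumours. Of these markers 12 were higher in the SG-/- group, where 46.3% of all genes were, and the median difference was 0.36. None passed in limma after Benjamini-Hochberg adjustment (each adjusted p = 1.00), and 3, Dcn, Fap and Postn, were higher at an unadjusted p under 0.05, against 1.43% of all genes. Dcn, a small proteoglycan that binds collagen fibrils, was at 10.65, 10.63 and 9.78 in SG+/- and at 11.87, 11.09 and 10.90 in SG-/- tumours, without overlap. The fibrillar medians on the same scale were 0.32, -0.12 and 0.12 in SG-/- replicates 1 to 3. In SG-/- replicate 1, Col1a1, Col1a2, Col3a1, Col5a1 and Col5a2 stood at 1.21, 1.31, 1.31, 1.22 and 0.87. The remaining fibrillar chains stood between 0.04 and 0.32 there. The part of fibroblast content in the collagen values was not tested.

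Of 8 pericyte and smooth muscle markers, 4 contractile genes of smooth muscle and myoepithelium were highest in SG-/- replicate 2, like Col4a1 and Col4a2. Myh11, a smooth muscle myosin, was at 10.21 in SG-/- replicate 2, at 8.85 in SG-/- replicate 1 and between 7.74 and 8.94 in SG+/- tumours. Cnn1, calponin, was at 7.68, 9.08 and 8.89 and at 9.24, 10.79 and 7.89, and Tagln and Acta2 were also highest in SG-/- replicate 2, at 10.04 and 12.40. The other 4, Rgs5, Cspg4, Des and Notch3, were highest in SG-/- replicate 1, and Des was lowest in SG-/- replicate 2, at 6.28. Endothelial markers were highest in SG-/- replicate 1 in 9 of 10 cases, against 20.0% of all genes. Kdr, a receptor for vascular growth factor, was highest in SG-/- replicate 2. All 10 were higher in the SG-/- group (median difference 0.37), against 46.3% of all genes. Of the 10, 4 were higher without overlap, against 2.84% of all genes. Cdh5 and Vwf had an unadjusted limma p under 0.05, as did 1.43% of all genes in that direction, and none passed after adjustment. The part of contractile and endothelial markers in the type IV values was not tested. All 4 macrophage markers were highest in SG-/- replicate 1, with medians of 0.91, 0.40 and 0.06 in SG-/- replicates 1 to 3. The 7 measured epithelial markers had a median difference of 0.08 and were uneven. Epcam, an adhesion molecule of epithelium, lay between 12.09 and 12.24 in all tumours, while Krt19, a luminal keratin, differed by 0.89 (unadjusted p = 0.0176, adjusted p = 1.00 in limma) with overlapping genotypes. Krt14, a basal keratin, ranged over 1.40 across the tumours with a difference of 0.11. Of 3 measured salivary markers, 1 was higher in SG-/- tumours without overlap, as were 2.84% of all genes. Bpifa2, the parotid secretory protein, was at 13.54, 7.26 and 13.64 in SG-/- replicates 1 to 3 against 5.98 to 6.47 in SG+/- tumours. Amy1, salivary amylase, was at 9.10, 6.29 and 10.03 in SG-/- tumours against 6.22 to 6.94, and Prol1 was at 10.40, 10.86 and 6.40 against 5.46 to 7.74, so both overlapped. The part of this tissue in the collagen values was not tested. Bone, skeletal muscle and adipocyte lists had median differences of 0.19, -0.01 and 0.36, and the cartilage list -0.10.

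**Figure D3:**
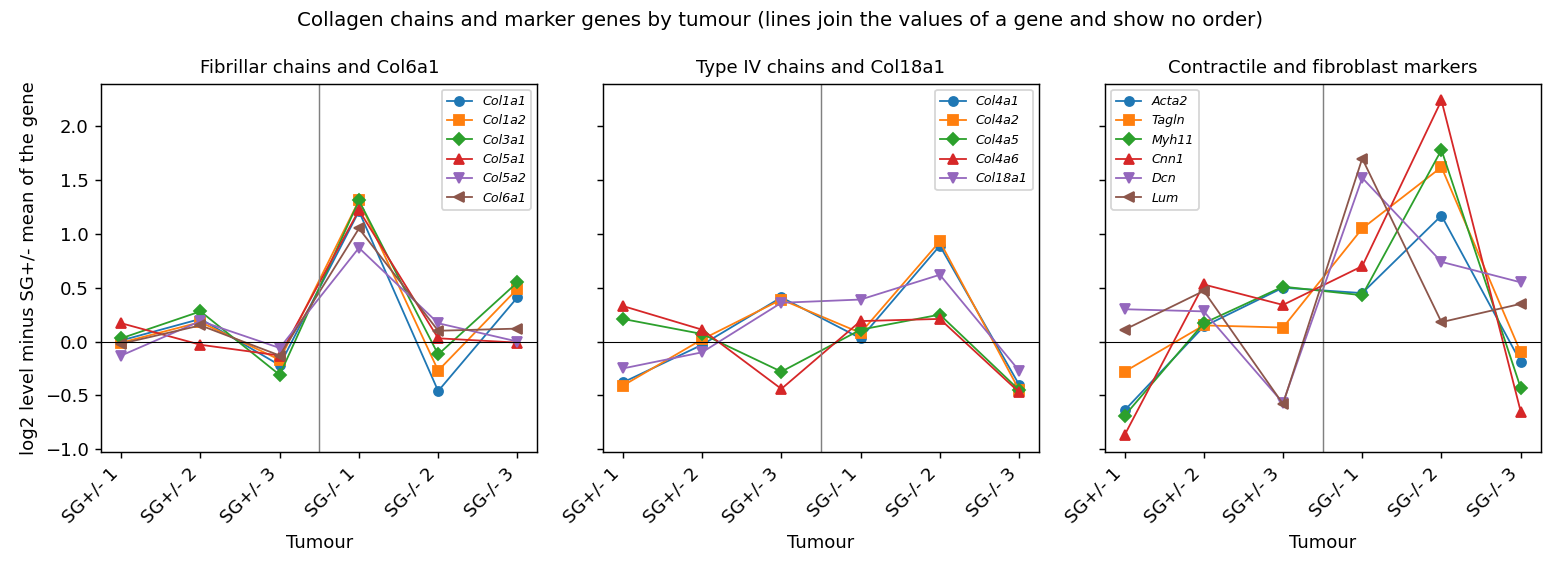
Level of selected collagen and marker genes (log2 level minus the mean of the gene over the SG+/- tumours, y axis) in each tumour (x axis), where lines join the values of 1 gene and imply no order. Fibrillar chains, Col6a1, Dcn and Lum are highest in SG-/- replicate 1, while Col4a1, Col4a2, Col18a1 and the contractile genes Acta2, Tagln, Myh11 and Cnn1 are highest in SG-/- replicate 2.

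Of 19 listed genes that modify or fold collagen chains inside the cell, 17 were measured, 6 were higher and 11 lower in SG-/- tumours, and the median difference was -0.03 (-0.17 if SG-/- replicate 2 is left out, 0.10 if SG-/- replicate 3 is). No member passed the adjustment over all genes in limma (each adjusted p = 1.00), and at an unadjusted p under 0.05, 0 were higher and 2 lower, against 1.43% and 0.685% of all genes. SG-/- replicate 1 was highest for 7 of the 17. P4ha3, a prolyl hydroxylase subunit chosen after its values were seen, was at 6.39, 6.28 and 6.29 in SG+/- tumours and at 7.88, 6.01 and 6.47 in SG-/- tumours, where SG-/- replicates 1 and 2 were the highest and the lowest, as for Col1a1. Plod2, which hydroxylates the lysines used for stable crosslinks, was at 9.32, 9.35 and 9.29 in SG+/- tumours and at 8.91, 8.73 and 8.24 in SG-/- tumours. The genotypes did not overlap, and the difference was -0.70 (standard error 0.19, unadjusted p = 0.0076). P3h4, a subunit of a lysine hydroxylation complex in the endoplasmic reticulum, was at 8.53, 8.62 and 8.32 and at 8.24, 8.20 and 8.07, also without overlap, with a difference of -0.32 (unadjusted p = 0.0485). With P4hb, which differed by -0.21, 3 of 17 members were lower without overlap, against 3.19% of all genes. Higher without overlap were 0 of 17, against 2.84% of all genes. P4ha1, a catalytic subunit of prolyl hydroxylase, which stabilises the helix, differed by -0.25 with overlapping genotypes.

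Outside the cell, 12 of 14 listed genes of processing and crosslinking were measured, 9 higher and 3 lower, with a median difference of 0.16 (0.08 without SG-/- replicate 1 and 0.07 with array weights). Pcolce, which enhances removal of the C-terminal propeptide, was at 8.04, 8.01 and 7.82 in SG+/- tumours and at 9.07, 8.34 and 8.26 in SG-/- tumours, without overlap. Its difference was 0.60 (standard error 0.23, unadjusted p = 0.0347), and it was the 1 member of this list with an unadjusted p under 0.05 (1 of 12, against 1.43% of all genes higher). Lox, the lysyl oxidase that crosslinks fibrils, had the largest difference, 0.91, with 8.46, 8.38 and 8.13 in SG+/- tumours and 10.53, 8.40 and 8.78 in SG-/- tumours. SG-/- replicate 1 stood out and SG-/- replicate 2 lay within the SG+/- range, as for Col3a1. Bmp1, the propeptide-cleaving protease, differed by 0.28, with SG-/- replicate 1 highest at 9.96.

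Of 10 listed collagen receptors 9 were measured, 7 higher and 2 lower, with a median difference of 0.22 (0.07 if SG+/- replicate 2 is left out, 0.09 if SG-/- replicate 1 is, and 0.44 if SG-/- replicate 3 is), and 2 were higher at an unadjusted p under 0.05, as were 1.43% of all genes. Itga2, the alpha chain of a collagen-binding integrin of epithelium and platelets, was at 8.69, 7.77 and 8.64 in SG+/- tumours and at 9.67, 9.60 and 8.89 in SG-/- tumours. The genotypes did not overlap, and the difference was 1.02 (standard error 0.31, unadjusted p = 0.014). Lair1, an inhibitory collagen receptor of leukocytes, was at 7.55, 7.27 and 7.50 and at 8.12, 7.69 and 7.80, also without overlap, and differed by 0.43 (unadjusted p = 0.032). Ddr1, a collagen-activated receptor tyrosine kinase of epithelium, differed by -0.23. No receptor passed the adjustment over all genes (each adjusted p = 1.00 in limma).

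Among the laminins and linkers that share the basement membrane with type IV collagen, 14 of 15 listed genes were measured, 10 were higher and 4 lower, and the median difference was 0.19, with 0.37 when SG-/- replicate 3 was left out and 0.09 when SG-/- replicate 2 was. Nid1, which links the laminin and type IV networks, was at 8.58, 8.44 and 8.71 in SG+/- tumours and at 9.69, 9.64 and 8.78 in SG-/- tumours, without overlap, with a difference of 0.79 (standard error 0.26, unadjusted p = 0.0172). Lamc3, a laminin gamma chain, differed by 0.43 without overlap (unadjusted p = 0.0342). Hspg2, perlecan, differed by 0.51 (unadjusted p = 0.035), and its genotypes overlapped, since SG-/- replicate 3 at 8.94 lay below SG+/- replicate 3 at 8.97. Lama1, a laminin alpha chain, differed by -0.30, with SG-/- replicate 2 highest at 8.78 and SG-/- replicate 3 lowest at 7.01, as for Col4a1. The members at an unadjusted p under 0.05 were 3 of 14, all higher, where 1.43% of all genes were, and 0 passed after adjustment in limma (each adjusted p = 1.00).

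**Figure D4:**
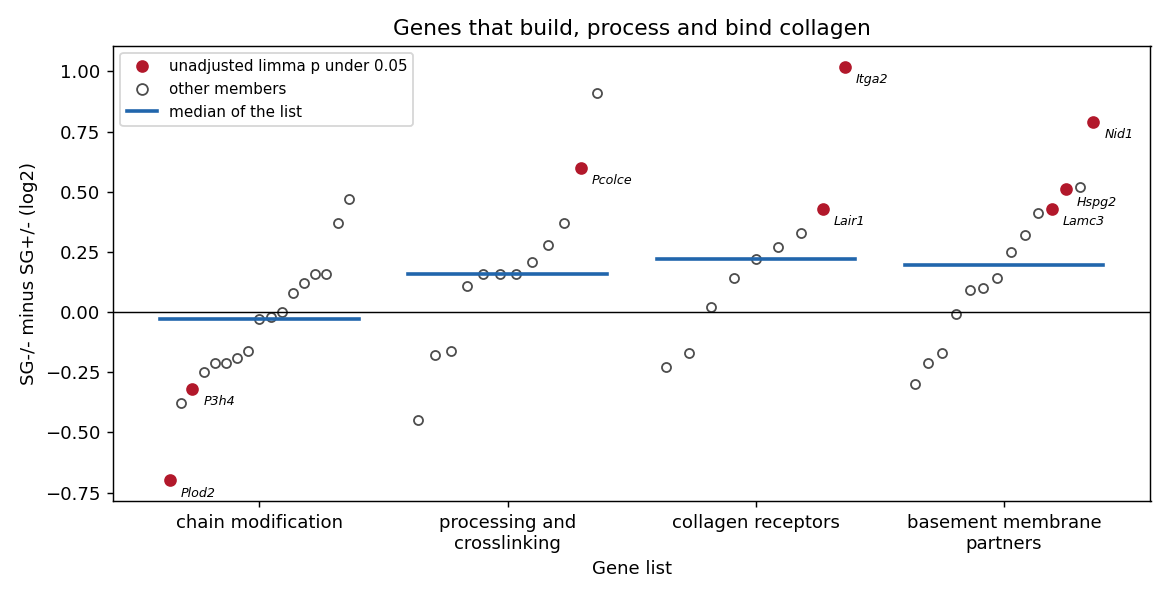
Difference between genotypes (SG-/- minus SG+/-, log2, y axis) of genes in 4 lists of collagen partners (x axis), with 1 point per measured gene, red where the unadjusted limma p was under 0.05, and a blue line at the median of the list. The medians are -0.03 for chain modification, 0.16 for processing and crosslinking, 0.22 for receptors and 0.19 for basement membrane partners.

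A pair of probe sets was named for Col1a2, Col5a1 and Col6a1. The dimmer probe set of Col1a2, at a mean of 7.08, had a difference of 0.38 against 0.51 in the brighter one, and that of Col6a1, at 6.60, had 0.45 against 0.42. In Col5a1 the dimmer one, at 6.06, was at 6.17 in SG-/- replicate 1 and had a difference of 0.01 against 0.41. It lay under the dim level, and it did not show the high value of SG-/- replicate 1 that the brighter probe set showed.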

How the data were processed

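The authors deposited log2 expression levels, 1 per probe set. Per the series description these come from robust multi-array averaging (RMA), which corrects background, quantile-normalizes probes and reduces them to a value for every probe set. The submitters' processing notes list Affymetrix Expression Console, limma and RMA, with no versions. RNA was extracted from snap-frozen tumours with Trizol, per the labels. Summaries of this kind compress changes of dim probe sets. Of 33793 probe sets, 23521 had 1 gene symbol in the platform annotation and 1814 several. For each of 22180 genes the probe set of highest mean was kept, and 1 further collagen probe set with several symbols was left out. Genotypes were compared as independent groups with lmFit and eBayes in limma 3.58.1 (R 4.3.3), with two-sided p-values adjusted over the 22180 genes by Benjamini-Hochberg. Col1a1, Col3a1 and Col4a1 also had exact permutation tests. The fit was also run on simulated data, whose errors were independent and of equal spread over arrays. The real arrays differ in weight, so that run cannot show how the fit behaves on them. Arrays, 3 per genotype, limit the precision. Replicate numbers follow accession order and only name samples. The labels number each tumour separately, and the tumours were treated as independent. The limma p-values set the genotype difference against the spread between these samples, moderated over all genes by eBayes. Dim means under the 40th percentile of mean levels.

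Collagen chains are those matching the symbol rule. The printed genes are Col1a1, Col1a2, Col3a1, Col5a1 to Col5a3, Col11a1, all type IV chains, Col6a1 to Col6a3, Col7a1, Col8a1, Col10a1, Col12a1, Col14a1, Col15a1, Col17a1 and Col18a1, chains with an unadjusted p under 0.05 or no overlap, and the 2 largest differences per class. In each partner list they are the first member, those with an unadjusted p under 0.05 and the largest difference. Members and lists were chosen with earlier results of these data known. Alternatives left out dim genes or each tumour in turn, or changed 1 step, which was to apply quantile normalization again, centre arrays, use eBayes with trend and robust settings, use array weights, average probe sets or add the receptor mean as a covariate. Promoter letters are from RefSeq (GRCm38.p6), and plots were drawn with matplotlib 3.10.9.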

Additional observations from a re-analysis of the deposited data

How the results depend on the processing

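The count of collagen chains past an adjusted p of 0.05 in limma was 0 under every alternative tried. Over all genes that count was 1 with the receptor mean as covariate and ran from 0 to 1 when single tumours were left out. Collagen chains with an unadjusted p under 0.05 numbered 5 with array weights and from 0 to 4 without single tumours, against 2, and over all genes the number was 2569 with array weights, 1038 with the receptor covariate and 1200 without SG-/- replicate 3, against 469. With array weights the collagen median difference was 0.00, the fibrillar median -0.05 and the type IV median 0.32. Without single tumours these ran from 0.01 to 0.10, from 0.01 to 0.21 and from -0.15 to 0.19. The median of the other types was 0.11 with dim genes left out and ran from -0.01 to 0.10 without single tumours. Signs turned with array weights for Col1a1 (-0.09), Col5a3 (-0.05), Col4a3 (-0.04), Col4a5 (0.31), Col4a6 (0.34) and Col6a3 (-0.28), and with repeated quantile normalization for Col11a1 (0.02). Leaving out single tumours gave -0.03 to 0.81 for Col1a1, -0.12 to 0.12 for Col11a1, -0.19 to 0.46 for Col4a1, -0.18 to 0.50 for Col4a2, -0.04 to 0.10 for Col4a3, -0.11 to 0.06 for Col4a4, -0.17 to 0.18 for Col4a5 and -0.24 to 0.20 for Col4a6. It gave -0.04 to 0.46 for Col6a2, -0.36 to 0.35 for Col6a3, -0.11 to 0.52 for Col12a1 and -0.10 to 0.24 for Col17a1. Apart from the fits without a tumour or with reweighted tumours, whose construction sets their difference, the cause was not tested. No paired analysis was possible because nothing in the labels pairs the mice. The number of arrays, 3 per genotype, and the closeness of 6 chains to the dim level limit what these data can show.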
